A study of Mus musculus with 18 samples.

Results

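The Notch receptors Notch1, Notch2 and Notch3, their ligands Jag1, Jag2 and Dll1, the transcription factor Rbpj and the target genes Hes1, Hey1 and Hey2 were followed across mouse skin carcinogenesis with or without epidermal Zfp36. They were chosen by gene symbol, and all 10 were found once each among the 52636 genes of the count table. RNA had been sequenced from epidermal cells sorted as EpCAM+ and CD45-, CD140a- and CD31-, although the labels name whole skin as the source. All mice carried loxP-flanked Zfp36 alleles on a C57BL/6 background. The fl/fl littermates had no Cre and kept Zfp36, and the ΔK14 mice (Zfp36 ΔK14 in the labels) had lost it in cells that express a Cre driven by the human keratin 14 promoter. That promoter is active in basal keratinocytes and in the hair follicle and glands that derive from them, so the deletion was not limited to interfollicular epidermis. Mock skin, DMBA/TPA-treated skin next to tumors (treated skin) and papillomas (tumors) were each taken from both genotypes. DMBA mutates DNA and so initiates skin tumors, whereas the phorbol ester TPA drives their growth. The labels give no age, do not say whether libraries of different stages came from the same animals, and call the treated cells "treated tumoral" keratinocytes, whereas the study describes them as nontumoral.

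Notch receptors are single-pass membrane proteins that are cut after they bind a Jagged or Delta ligand on a neighboring cell. The freed intracellular part joins RBPJ on DNA and turns a repressor into an activator of genes such as Hes1 and Hey1. In epidermis, Notch signaling is known to promote exit from the basal layer and differentiation, and loss of Notch1 in mouse skin is known to favor tumors. Zfp36 encodes tristetraprolin (TTP), which binds AU-rich elements in the 3′ untranslated region (3′ UTR) of mRNAs and speeds their decay.

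By position on GRCm38, Notch1 (ENSMUSG00000026923) lies at chr2:26457903-26516663 and Jag1 (ENSMUSG00000027276) at chr2:137081456-137116644, both on the minus strand, and Jag2 (ENSMUSG00000002799) at chr12:112907819-112929776, also on the minus strand. Dll1 (ENSMUSG00000014773) lies at chr17:15367354-15376872 on the minus strand, Rbpj (ENSMUSG00000039191) at chr5:53466152-53657362 and Hes1 (ENSMUSG00000022528) at chr16:30064384-30067796, both on the plus strand. The AU-rich heptamer TATTTAT was present in the longest annotated 3′ UTR of 5 of the 10 genes. It occurred 5 times in Jag1, 4 times in Notch1 and 1 time each in Notch3, Dll1 and Rbpj, with overlapping copies counted separately. Among 21022 mouse genes with a 3′ UTR in GENCODE M21 on build GRCm38, 27.6% held at least 1 copy on the transcribed strand. The nonamer TTATTTATT was found 1 time in Notch1 and 1 time in Jag1, and in 7.66% of all genes. No copy of the heptamer was found in Notch2, Jag2, Hes1, Hey1 or Hey2. A match of letters is a description of the annotated transcript and not a measured binding site. The following windows of the 3′ UTRs are shown as examples of such matches, in transcript orientation with the heptamer in capitals. For Notch1 and Jag1 they cover 1 of 4 and 1 of 5 copies. They are the nonamer windows of Notch1 (chr2:26459162-26459190, minus strand) and Jag1 (chr2:137082540-137082568, minus strand) and the single windows of Notch3 (chr17:32121639-32121667, minus strand), Dll1 (chr17:15367441-15367469, minus strand) and Rbpj (chr5:53654390-53654418, plus strand).
Notch1: taaatgctgttTATTTATtgattgcttct
Jag1: aatgactttatTATTTATttttttttatt
Notch3: cagtcttccttTATTTATaatgggtaggg
Dll1: gtatataaatgTATTTATggaatattgtg
Rbpj: ttaaagaaatgTATTTATagtggtaatct

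**Figure D1:**
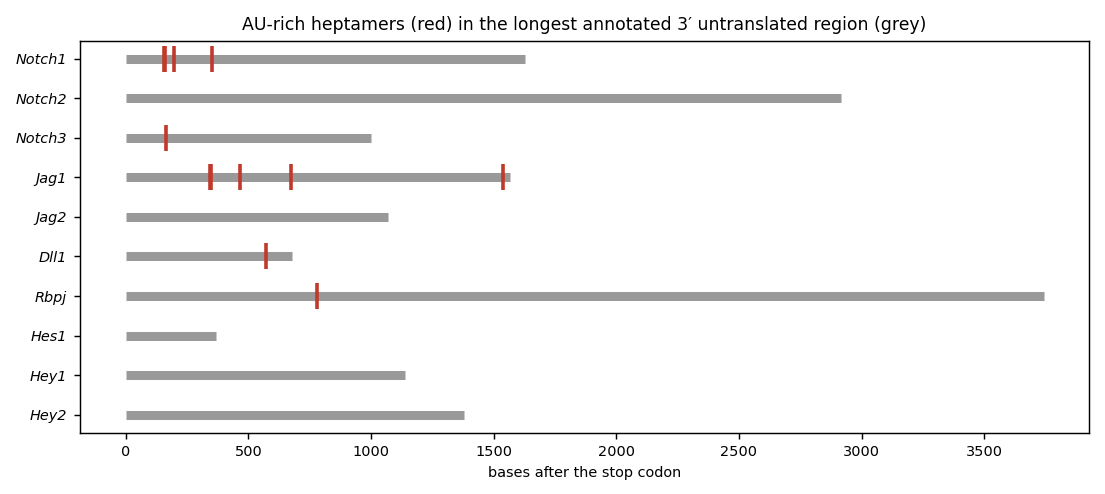
Position of the heptamer TATTTAT (red marks) along the longest annotated 3′ UTR (grey bars) of each of the 10 genes, in bases after the stop codon. The 4 copies in Notch1 lie between 154 and 352 bases after the stop codon, and those in Jag1 between 343 and 1539 bases.

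Each group held 3 columns, but replicates 2 and 3 of mock ΔK14 held the same value for all genes and entered once, which left 17 libraries and n = 2 in that group. Total counts ran from 2808550 to 9617985. Zfp36 was lower in ΔK14 libraries by 3.99 to 4.13 on the log2 scale at each stage, as 10.1 to 38.6 TMM-scaled CPM (a count relative to library size) against 152 to 716 in fl/fl libraries. Its edgeR adjusted p was 1 in mock skin, 0.0391 in treated skin and 0.00882 in tumors. All libraries expressed the keratinocyte genes Epcam and Krt5, and the leukocyte gene Ptprc was at most 1.51 CPM. The sum of 8 leukocyte markers was 9.94 to 177 CPM, with Cd74 at 172 CPM in the highest library. It was 60.2 to 89.9 CPM in ΔK14 tumors and 15.6 to 34.1 CPM in fl/fl tumors. Cd74 carried this difference, at 54.9 to 83.6 and 10.7 to 28.6 CPM, respectively. Among the other markers, Ptprc, Itgam and Csf1r overlapped between the tumors of the genotypes, and Lyz2 was lower in ΔK14 tumors. Cd3e, Cd3g and Cd207 were at most 0.726 CPM in tumors. The sum of 6 fibroblast markers was 376.5 to 1678 CPM in mock and treated skin and 30.4 to 386 CPM in tumors. Its genes did not move alike. In ΔK14 mice Dcn was at 230 to 843 CPM in treated skin and at most 2.91 CPM in tumors. Col1a1 overlapped there, at 40.4 to 259 CPM in treated skin and 17.1 to 189 CPM in tumors. The part of these markers in the results was not tested. Replicate 1 of both mock groups stood apart. The 10 summed markers of hair matrix and inner root sheath reached 2288 CPM there in fl/fl and 2275 CPM in ΔK14, against 36.5 to 48.7 CPM in the other mock libraries, 547 to 1705 CPM in treated skin and 26.2 to 89.9 CPM in tumors, and 9 of the 10, all but Foxn1, were higher in both than in the other mock libraries. In fl/fl tumors, 6 summed sebaceous gland markers reached 4141 CPM in replicate 2 and 7433 CPM in replicate 3, against 380.3 CPM in replicate 1, 321 to 455 CPM in ΔK14 tumors and 422 to 785 CPM in mock and treated skin. Of these 6 markers, 5 were higher in both tumors than in all other libraries, and Mc5r was at most 1.22 CPM in them. The sum of 8 epithelial and basal markers was 10210.2 and 9933 CPM in the same tumors, against 34279 CPM in replicate 1 and 27373 to 29589 CPM in ΔK14 tumors. Of that list, Krt5 was at 2618 and 2807 against 12120 CPM in replicate 1, whereas Epcam (466 and 345 against 176 CPM) and Cdh1 (888 and 737 against 624 CPM) were higher in replicates 2 and 3. In bulk RNA, fewer cells of a type and less RNA per cell cannot be told apart.

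Among the members, Jag1 gave the highest level per length, with a mean over the 17 libraries of 75.9 CPM per kb of annotated exons. Hes1 followed with 40.9 and Notch1 with 35.4 CPM per kb, and their ranges overlapped. Jag2 (19.3), Notch2 (14.4), Dll1 (10.3), Notch3 (7.34) and Rbpj (5.44 CPM per kb) came next, each overlapping its neighbor in this order. Hey1 (0.939) and Hey2 (0.166 CPM per kb) lay below them. The highest Hey1 library was below the lowest Rbpj library, and this was the one gap between neighbors in the order. Hey2 had 0 to 13 counts per library and did not pass the filter on low counts in any comparison, so tests were made for 9 members. Its 0 counts in replicate 1 of the fl/fl tumors and replicate 1 of the ΔK14 tumors allow up to 1.51 and 0.671 CPM, respectively (3 counts).

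**Figure D2:**
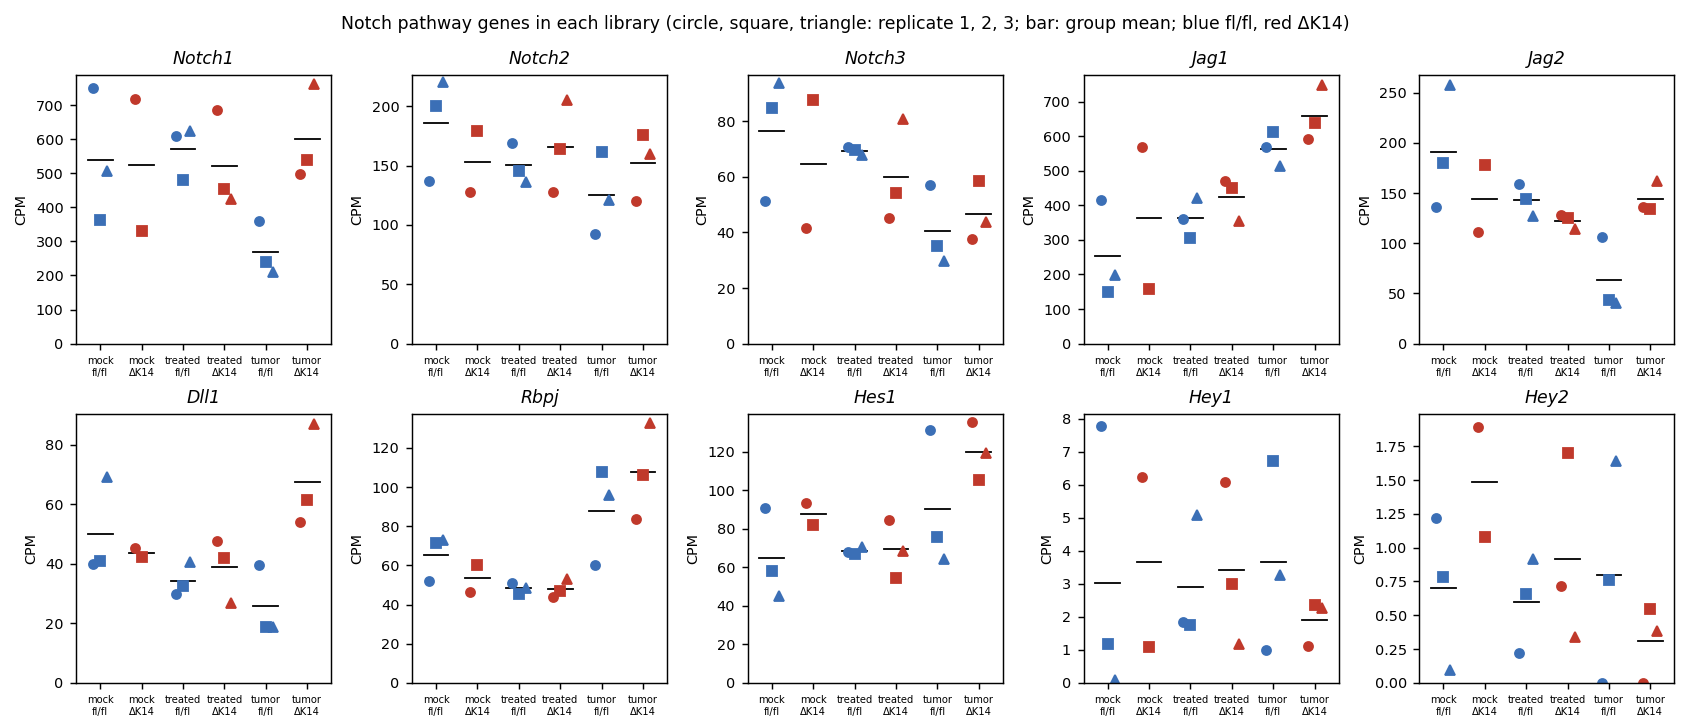
TMM-scaled CPM (y axis, from 0) of the 10 genes in each of the 17 libraries by group (x axis), with fl/fl in blue, ΔK14 in red, 1 point shape per replicate number and a bar at the group mean. Notch1 in the 3 fl/fl tumors sits between 209.8 and 359.7 CPM, below all treated fl/fl libraries and all ΔK14 tumors, while Jag1 in the 6 tumors sits between 514 and 749 CPM, above all 6 treated libraries.

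The first question was how the pathway differed between tumors and the treated skin around them. In fl/fl mice, the receptor Notch1 and the ligand Jag2 fell in tumors, and Rbpj rose by less than 2-fold. In ΔK14 mice, Rbpj rose past 2-fold and Hes1 rose by less, and neither Notch1 nor Jag2 passed the test. A gene was called when its Benjamini-Hochberg adjusted p, from edgeR's quasi-likelihood test over all genes tested, was under 0.05 and its fold change was over 2. In fl/fl mice 2 of 9 members were called, both lower in tumors, while 18% of all tested genes were called and 10.5% were called lower. In ΔK14 mice 1 of 9 members was called, higher in tumors, beside 26% of all genes and 10.5% called higher. The share of members called in fl/fl mice is close to that of all genes, and in ΔK14 mice it is below it. Over the 9 members the median log2 fold change was -0.29 in fl/fl and 0.14 in ΔK14 mice, beside -0.02 and -0.03 over all genes.

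Among the receptors, Notch1 is a main Notch receptor of the epidermis. It stood at 609, 479.8 and 626 CPM in treated fl/fl skin and at 359.7, 239 and 209.8 CPM in fl/fl tumors. Every fl/fl tumor was below every treated fl/fl library, and replicate 1 was the highest of the 3 tumors. It was 2.18-fold lower in tumors (log2 fold change -1.12 ± 0.25 SE, edgeR adjusted p = 0.0173). In ΔK14 mice, Notch1 was at 685, 454 and 425 CPM in treated skin and at 497, 540.3 and 763 CPM in tumors, and the groups overlapped (log2 fold change 0.10 ± 0.25, adjusted p = 0.771). Notch3, a receptor also known from vascular mural cells, was at 67.9 to 70.8 CPM in treated fl/fl skin and at 57.2, 35.0 and 29.8 CPM in the fl/fl tumors. Its groups did not overlap and it passed the test but not the fold limit (log2 fold change -0.82 ± 0.25, adjusted p = 0.0472). Notch2 lay between 92.3 and 220.4 CPM over all 17 libraries and overlapped between tumor and treated skin in both genotypes.

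Among the ligands, Jag2 was lower in fl/fl tumors, and neither Jag1 nor Dll1 passed the test in either genotype. Jag2, a Jagged ligand of the basal layer, was at 159, 144 and 127 CPM in treated fl/fl skin and at 106, 43.2 and 40.0 CPM in fl/fl tumors. All 3 tumors were below the treated range, and replicates 2 and 3 were far below replicate 1. It was 2.35-fold lower in tumors (log2 fold change -1.23 ± 0.36, edgeR adjusted p = 0.0425). In ΔK14 mice Jag2 was at 128, 125 and 115 CPM in treated skin and at 136, 134 and 162 CPM in tumors (log2 fold change 0.14 ± 0.16, adjusted p = 0.537).

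Jag1, a Jagged ligand also known as a Wnt-responsive gene of the hair follicle, was higher in all tumors than in treated skin of the same genotype. It was at 359.9, 307 and 420.1 CPM in treated and at 568, 612 and 514 CPM in tumor fl/fl libraries, without overlap. The log2 fold change was 0.61 ± 0.20, with an edgeR adjusted p of 0.0558 that missed the threshold. In ΔK14 libraries it was at 469.8, 450.3 and 354 CPM in treated skin and 591, 638 and 749 CPM in tumors (log2 fold change 0.53 ± 0.20, adjusted p = 0.0624). Dll1, a Delta ligand, was at 30.0 to 40.5 CPM in treated fl/fl skin and at 39.6, 18.8 and 18.7 CPM in fl/fl tumors, where replicate 1 lay within the treated range. In ΔK14 mice it was at 26.9 to 47.7 CPM in treated skin and at 54.1, 61.5 and 87.0 CPM in tumors, without overlap (log2 fold change 0.69 ± 0.27, adjusted p = 0.0742).

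Rbpj, which encodes the DNA-binding partner of all Notch receptors, had similar levels in treated skin of both genotypes. It was at 45.6 to 51.0 CPM in fl/fl and at 44.0, 46.7 and 53.1 CPM in ΔK14 treated libraries. In tumors it was at 60.2, 108 and 96.0 CPM in fl/fl and at 83.6, 106 and 133 CPM in ΔK14. The tumors of both genotypes were above all treated libraries. The fold was 2.10 in ΔK14 mice (log2 fold change 1.07 ± 0.20, edgeR adjusted p = 0.00433) and 1.79 in fl/fl mice (0.84 ± 0.24, adjusted p = 0.0385). Without ΔK14 tumor replicate 3 the ΔK14 value was 0.92 ± 0.22 (adjusted p = 0.025), under the fold limit, so that no member was called beside 17.5% of all genes. Without a fold limit, 4 of 9 members passed in fl/fl mice (Notch1, Notch3, Jag2 and Rbpj), beside 25% of all genes, and 2 of 9 in ΔK14 mice (Rbpj and Hes1), beside 36.8% of all genes.

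Among the targets, Hes1, a repressor and classic direct target, was at 54.4 to 84.9 CPM in treated ΔK14 skin and at 135, 106 and 119.7 CPM in ΔK14 tumors, without overlap (log2 fold change 0.71 ± 0.20, edgeR adjusted p = 0.0257). In fl/fl mice it was at 66.9 to 70.5 CPM in treated skin and at 131, 75.6 and 64.2 CPM in tumors. The fl/fl tumor with the high value was replicate 1, and the other two lay near treated skin (log2 fold change 0.36 ± 0.27, adjusted p = 0.348). Hey1, a related repressor, had 1 to 70 counts per library and did not pass the test in either genotype. Groups did not overlap for 5 of 9 members in fl/fl mice (Notch1, Notch3, Jag1, Jag2 and Rbpj), beside 45.9% of all genes in either direction. In ΔK14 mice 5 of 9 (Jag1, Jag2, Dll1, Rbpj and Hes1) were higher without overlap, beside 28.4% of all genes that were higher.

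**Figure D3:**
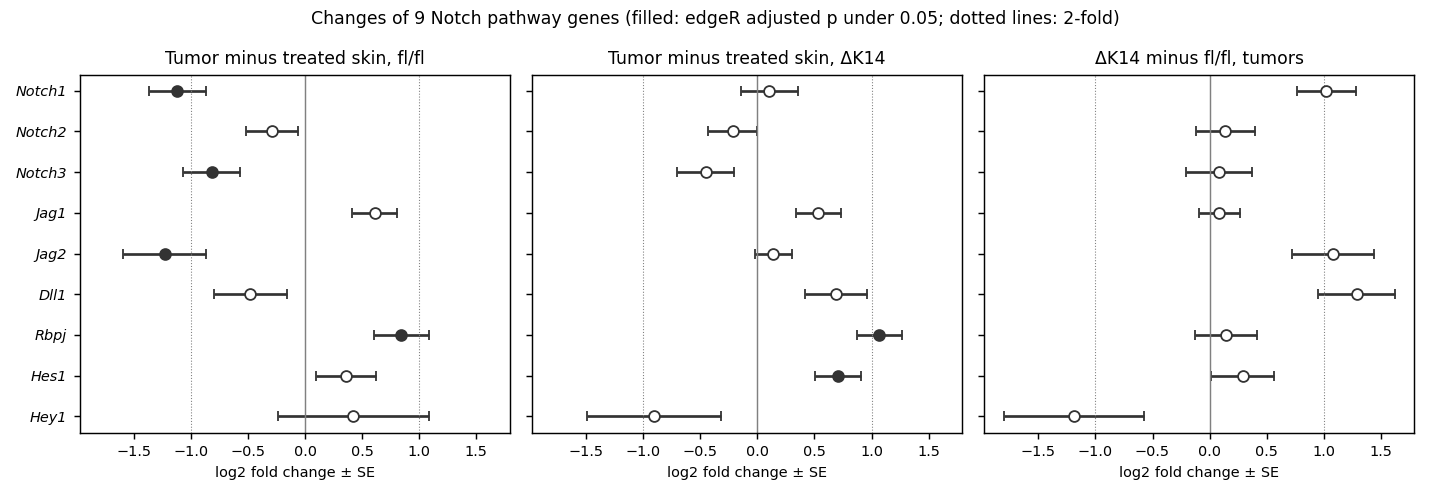
Log2 fold change with its standard error (x axis) of the 9 tested genes (y axis) from tumor minus treated skin in fl/fl and in ΔK14 mice and from ΔK14 minus fl/fl tumors; filled points have an edgeR adjusted p under 0.05. Notch1 (-1.12) and Jag2 (-1.23) are called lower in fl/fl tumors, Rbpj (1.07) is called higher in ΔK14 tumors, and no point is filled in the genotype panel.

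The calls in fl/fl mice rested on few libraries. With tumor replicate 1 left out, 4 members were called beside 24.3% of all genes. No member was called without treated replicate 1 (7.21% of all genes), treated replicate 3 (9.91%), tumor replicate 2 (16.8%) or tumor replicate 3 (9.98%), and without treated replicate 2 (8.91%) Notch1 was the 1 member called. The share of all genes called thus moved with these libraries too. With replicates 2 and 3 left out, which were the libraries with high sebaceous markers, no member was called beside 24.2% of all genes (edgeR, 1 tumor against 3 treated libraries, the lone tumor assumed to vary like the others). Notch1 then had a log2 fold change of -0.68 ± 0.26 (adjusted p = 0.084) and Jag2 one of -0.44 ± 0.22 (adjusted p = 0.151). Notch1 kept a lower value in replicate 1 than in any treated fl/fl library, and so did Jag2. The part of the sebaceous markers in these results was not tested.

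The comparisons of tumors with treated skin and of tumors between genotypes use the same tumor libraries, so their values are not independent. The second comparison asked whether the loss of Zfp36 changed the pathway at each stage. In tumors, the receptor Notch1 and the ligands Jag2 and Dll1 were higher in each ΔK14 than in each fl/fl library, by 2.03, 2.11 and 2.44-fold. No member was called by edgeR with all libraries, while 0.0284% of all tested genes were called, 3 members and 1975 of 14067 genes had an unadjusted p under 0.05, and DESeq2 called 2 members. Notch1 was at 497, 540.3 and 763 CPM in ΔK14 tumors against 359.7, 239 and 209.8 CPM in fl/fl tumors (log2 fold change 1.02 ± 0.26, edgeR adjusted p = 0.209). Dll1 was at 54.1, 61.5 and 87.0 against 39.6, 18.8 and 18.7 CPM (1.29 ± 0.33, adjusted p = 0.216). Jag2 was at 136, 134 and 162 against 106, 43.2 and 40.0 CPM (1.08 ± 0.36, adjusted p = 0.264). These were 3 of 9 members higher without overlap, beside 13.6% of all tested genes, and the median over members was 0.14 beside -0.02 over all genes. Notch1 and Dll1 hold the heptamer shown above and Jag2 does not. Jag1, with the most copies of the heptamer, differed by 0.09 ± 0.18 between genotypes in tumors (adjusted p = 0.861). Its log2 fold change was 0.48 ± 0.71 in mock skin and 0.21 ± 0.20 in treated skin. A link between the heptamer and these differences was not tested, and RNA levels do not measure decay.

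This result depended on single fl/fl tumors and on the method. Without fl/fl tumor replicate 1, Notch1, Jag2, Dll1 and Hey1 were called beside 16.9% of all genes, with Notch1, Jag2 and Dll1 higher and Hey1 lower in ΔK14. With DESeq2, Notch1 (adjusted p = 0.0244) and Dll1 (adjusted p = 0.0268) were called beside 2.6% of all genes. With no filter on low counts, Notch1, Jag2 and Dll1 were called beside 4.27%. With fl/fl tumor replicates 2 and 3 left out, no member was called beside 0.161% of all genes. The log2 fold changes of Notch1, Jag2 and Dll1 were then 0.63 ± 0.29, 0.34 ± 0.25 and 0.66 ± 0.33. The low values of Jag2 and Dll1 belonged to the same fl/fl tumors as the high sebaceous markers, whose part in the difference was not tested.

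In treated skin the genotypes did not differ detectably in any member. The log2 fold changes ran from -0.25 (Jag2, 122 ± 7.01 CPM in ΔK14 against 143 ± 15.8 CPM in fl/fl, SD, n = 3 each) to 0.21 (Jag1), and 0 of 9 members were called by edgeR beside 0.00616% of all genes (901 genes at an unadjusted p under 0.05, 36 called by DESeq2). In mock skin they ran from -0.39 (Jag2) to 0.48 (Jag1), and 0 of 9 were called beside 0% of all genes (253 genes at an unadjusted p under 0.05, 3 called by DESeq2). No member had an unadjusted p under 0.05 in either comparison, and DESeq2 called no member in either. In mock skin Jag1 was at 568 and 157 CPM in ΔK14 and at 416, 148 and 198 CPM in fl/fl libraries, so replicate 1 was the high library of both genotypes.

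The change from treated skin to tumor was also compared between the genotypes. For Notch1 it was 1.24 ± 0.37 higher on the log2 scale in ΔK14 than in fl/fl mice (edgeR adjusted p = 0.221). It was 1.39 ± 0.42 higher for Jag2 (adjusted p = 0.222) and 1.19 ± 0.44 higher for Dll1 (adjusted p = 0.292). No member passed, beside 0.0118% of all genes. At an unadjusted p under 0.05 there were 3 members and 2243 of 17017 genes, and DESeq2 called no member beside 1.35% of all genes. With no filter on low counts the same 3 members were called, beside 2.76% of all genes. Without fl/fl tumor replicate 1 these 3 members were called, beside 7.53% of all genes. The change from mock skin to tumor differed by 1.55 ± 0.60 for Jag2 and by 1.55 ± 0.55 for Dll1, and no member was called beside 0% of all genes (1423 genes and 2 members at an unadjusted p under 0.05, with 31 genes and no member called by DESeq2).

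The third comparison set tumors and treated skin against the same mock libraries. Between treated and mock skin edgeR called no member and 0% of all genes in fl/fl (913 genes at an unadjusted p under 0.05, 118 called by DESeq2) and likewise in ΔK14 mice (0%, 763 and 71 genes). No member had an unadjusted p under 0.05, and DESeq2 called none. The libraries of mock replicate 1 decided the value of Jag1. In fl/fl mock skin Jag1 was at 416 CPM in replicate 1 and at 148 and 198 CPM in the others, against 359.9, 307 and 420.1 CPM in treated skin. Without mock replicate 1 Jag1 was called higher in treated fl/fl skin (log2 fold change 1.10 ± 0.20, edgeR adjusted p = 0.00997), beside 15.1% of all genes.

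In tumors against mock skin, edgeR called no member in fl/fl mice, beside 4.11% of all genes, while 5 members and 4038 of 15394 genes had an unadjusted p under 0.05 and DESeq2 called 1 member (Jag2) and 14.3% of all genes. Notch1 and Jag2 were called with no filter on low counts, beside 7.64% of all genes, and in a single fit of all libraries, beside 17.6%. Jag2 had the smallest p, at 136, 179.7 and 257 CPM in mock skin and 106, 43.2 and 40.0 CPM in tumors (log2 fold change -1.64 ± 0.45, adjusted p = 0.0752). Without fl/fl tumor replicate 1, Jag2 was called (-2.21 ± 0.33, adjusted p = 0.0322) beside 3.65% of all genes. Without mock replicate 1, Notch3 (-1.16) and Jag2 (-1.83) were called lower and Jag1 (1.69) higher, beside 21% of all genes. In ΔK14 mice no member was called, beside 14.3% of all genes, with 1 member (Rbpj) and 5171 of 15027 genes at an unadjusted p under 0.05, and DESeq2 called no member and 18.7% of all genes. Rbpj was at 46.6 and 60.2 CPM in mock skin and 83.6, 106 and 133 CPM in tumors (0.92 ± 0.29, adjusted p = 0.0784), and without mock replicate 2 it was called (1.20 ± 0.31, adjusted p = 0.0244) beside 22% of all genes. It was also called with no filter on low counts, beside 13.1%, and in a single fit of all libraries, beside 16.8%. Without mock replicate 1, Jag1 was called higher in ΔK14 tumors (2.04 ± 0.27, adjusted p = 0.00111), beside 28.1% of all genes, with a single mock library left whose spread was assumed to be that of the tumors.

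In both genotypes, several members in replicate 1 of mock skin stood apart from the other mock libraries. Jag1 was at 416 and 568 CPM there against 148 to 198 CPM in the other mock libraries, and Notch1 at 751 and 719 against 332 to 506 CPM. Hey1 was at 7.77 and 6.23 CPM against 0.0967 to 1.18 CPM, and the related Heyl at 12.99 and 10.02 CPM against 0 to 0.589 CPM. Notch2 and Notch3 went the other way, with Notch3 at 51.3 and 41.7 CPM against 84.9 to 93.7 CPM. The ligand Jag2 was lowest there among mock libraries, at 136 and 111 CPM. These were the libraries with high hair matrix and inner root sheath markers, and the part of those markers in the values was not tested. How many of all genes stood apart in these libraries was not counted. Without fl/fl mock replicate 1, 15.1% of all genes were called between treated and mock fl/fl skin, against 0% with it. Treated skin, with intermediate levels of these markers, also had intermediate Heyl (2.71 to 7.54 CPM). Jag1 did not follow the markers in this way. Tumors had 26.2 to 89.9 CPM of the summed markers, and Jag1 was at 514 to 749 CPM there. Hey1 was at 6.72 CPM in fl/fl tumor replicate 2 and at most 3.28 CPM in the other tumors.

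**Figure D4:**
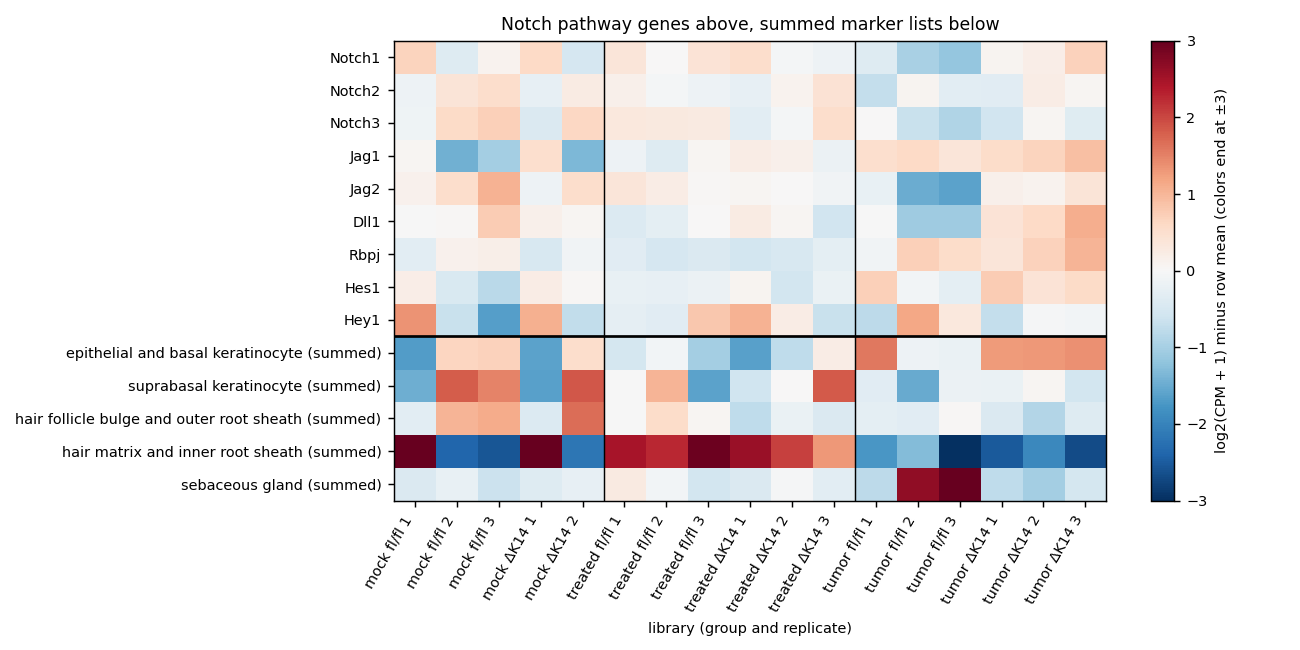
Log2(CPM + 1) minus the mean of each row for 9 members (upper rows) and 5 summed marker lists (lower rows) over the 17 libraries (columns, grouped by stage and genotype); red is above and blue below the row mean, and colors end at ±3. Mock replicate 1 of both genotypes is red for Notch1, Hey1 and hair matrix markers, Jag1 is blue in the other mock libraries, and fl/fl tumors 2 and 3 are blue for Notch1, Jag2 and Dll1 and red for sebaceous markers.

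Across the 17 libraries Jag2 and Dll1 varied most alike among the members (Pearson r = 0.75 of log2 CPM), followed by Notch3 with Jag2 (0.74), while Notch3 and Jag1 varied in opposite directions (r = -0.79). Jag2 and Dll1 also ran opposite to the summed sebaceous markers (r = -0.84 and -0.78), Jag1 to the bulge and outer root sheath markers (-0.89) and Rbpj to the hair matrix markers (-0.81). These coefficients describe 17 libraries that share stages, genotypes and depth. Genes of the bulge and outer root sheath sum moved in opposite ways. Krt15 was at 265 to 2536 CPM in mock skin and 72.2 to 208 CPM in tumors, and Sox9 at 65.8 to 98.0 and 255 to 674 CPM. The relation of Jag1 to this sum is therefore not one to every gene in it. Among the 18252 genes that passed the filter over all groups, those most like Notch1 were Elmo2 (r = 0.96), Lama5 (0.94) and Ranbp3 (0.92). Those most like Jag1 were Ccnyl1, Lrp8 and Dse (0.97 each), and those most like Jag2 were Ajuba (0.97), Celsr1 (0.97) and Dexi (0.95). Those most like Hes1 were Hnrnpa3 (0.94), Impdh2 (0.93) and Mrpl20 (0.93), and those most like Hey1 were S100a3 (0.94), 5430416N02Rik (0.88) and Hnrnph1 (0.88).

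Of 58 other core genes of the pathway, 48 were tested between tumors and treated skin in each genotype. In fl/fl mice 1 was called higher and 6 lower, and in ΔK14 mice 1 was called higher and 7 lower, so that the share called in either direction was below that of all genes given above, while the share called lower in fl/fl mice was slightly above it. Lfng, the Fringe enzyme that adds sugars to Notch receptors and alters their response to ligands, was at 15.2 to 21.6 CPM in treated fl/fl skin and 6.52, 4.12 and 2.29 CPM in fl/fl tumors. It fell by 2.11 on the log2 scale (SE 0.38, edgeR adjusted p = 0.00841), and in ΔK14 mice it was at 12.7 to 15.3 CPM in treated skin and 9.08 to 11.2 CPM in tumors (adjusted p = 0.0776). Furin, the protease that matures Notch receptors, was at 96.2 to 99.9 CPM in treated and 249 to 277 CPM in tumor ΔK14 libraries (log2 fold change 1.32 ± 0.16, adjusted p = 0.000856). In fl/fl mice it was at 122 to 135 CPM in treated skin and 130.4 to 192 CPM in tumors (0.31 ± 0.18, adjusted p = 0.241). Of the other cleavage genes, Psen2 (-1.79) and Aph1b (-1.22), alternative subunits of the γ-secretase complex, were called lower in fl/fl tumors.

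Among 13 listed regulators of ubiquitination, 4 genes were called lower in ΔK14 tumors, beside 15.5% of all tested genes. Mib2 (-2.22), Dtx4 (-2.37) and Neurl1b (-2.23) had the smallest p. The summed list overlapped, at 452 to 618 CPM in treated and 488 to 636 CPM in tumor ΔK14 libraries. In fl/fl tumors Dtx4 (-1.37) was called lower, beside 10.5% of all tested genes. Among nuclear cofactors, the corepressor gene Tle1 was called higher in fl/fl tumors (log2 fold change 1.31 ± 0.38, edgeR adjusted p = 0.0401). It was at 33.1, 37.7 and 42.4 CPM in treated skin and at 44.7, 143 and 95.1 CPM in tumors. Replicate 1 was thus near treated skin, and the high values were in the tumors with high sebaceous markers, whose part was not tested. Tle2 was called lower in fl/fl tumors at no more than 0.983 CPM, and the coactivator Kat2b fell by 1.06 in ΔK14 tumors. Heyl, of the Hey family, was called lower in tumors of both genotypes, from 5.43 to 6.28 CPM in treated to at most 1.31 CPM in tumor fl/fl libraries and from 2.71 to 7.54 to at most 0.671 CPM in ΔK14. Hes6 was called lower in ΔK14 tumors. The feedback inhibitor Nrarp lay between 27.9 and 58.8 CPM in all 17 libraries and was called in neither genotype. Notch4, Dll3, Dll4, Dlk1 and Dner were at most 3.95 CPM in any library.

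Among epidermal genes linked to Notch in keratinocytes, Cdkn1a, the cell cycle inhibitor p21, rose in tumors of both genotypes. It was at 60.7, 70.0 and 74.5 CPM in treated and at 224, 291 and 316 CPM in tumor fl/fl libraries (log2 fold change 1.99 ± 0.21, edgeR adjusted p = 0.00169). In ΔK14 libraries it was at 67.5, 75.2 and 99.7 CPM in treated skin and at 219, 383 and 487 CPM in tumors (2.07 ± 0.29, adjusted p = 0.00156). Krt10, a keratin of the suprabasal layers, fell by 1.94 on the log2 scale in ΔK14 tumors (SE 0.56, adjusted p = 0.0262). It was at 805, 914 and 3845 CPM in treated skin and at 572, 580 and 359 CPM in tumors. Krt1 overlapped, at 865, 1285 and 5609 CPM in treated skin and 1356, 1926 and 1093 CPM in tumors. Of 7 suprabasal markers tested in ΔK14 mice, 3 were called lower and 0 higher, beside 15.5% of all genes called lower. Krtdap, at 86.3, 223 and 319 CPM in treated skin and 442, 326 and 372 CPM in tumors, did not pass (adjusted p = 0.158). Against mock skin, Lfng was called lower in fl/fl tumors (-2.20), and in ΔK14 tumors Furin (1.72) and Adam10 (1.12), a protease that cuts ligand-bound receptors, were called higher and Mib2 (-2.10) lower. None of these other pathway genes was called between genotypes at any stage, or between treated and mock skin.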

How the data were processed

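The authors deposited a table of raw, unnormalized counts of reads for each gene, from Ovation SoLo libraries of sorted epidermal cells read on an Illumina HiSeq. The submitters' processing notes name Trimmomatic 0.36, STAR 2.5.3, HTSeq 0.9.1, DESeq2 and mm10 without giving their roles. Which annotation was used, whether counting was stranded and whether duplicates were removed is not given in the sources used here, so overlapping or antisense genes may share reads. Replicates are separate samples in the labels, which do not say that each is 1 animal, so p-values measure the spread between these samples.

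The tests used edgeR 4.0.16 in R 4.3.3 (filterByExpr, TMM, quasi-likelihood test, two-sided, Benjamini-Hochberg adjustment) on the groups of each comparison, with both genotypes in the tests of a difference between genotypes in a change. Calls required an adjusted p under 0.05 and a fold over 2. CPM were scaled over all 17 libraries, and correlations used log2 CPM with a prior count of 2. Total counts ran from 2808550 to 9617985, and counting precision covers counting error only. Exon lengths, positions and 3′ UTRs came from GENCODE M21 (GRCm38), in which 52403 of 52636 gene IDs were found. The procedure was tested on simulated data. Between tumor and treated fl/fl skin, 63% of 4-fold and 86% of 8-fold changes were found. For the difference between genotypes in that change, 45% and 81% were found. Smaller changes, such as those of most members, were not simulated. The 10 genes and all lists were chosen with earlier results of these data known. All members but Hey2 were tested in every comparison, but their values are not all printed. Printed values are mainly those of members with an unadjusted p under 0.05 or a call under some alternative. Text also names up to 3 called genes per pathway list by smallest p and others of a list where its count is given. It names the 3 genes most like each of 5 members. Alternatives were DESeq2 1.42.0, RLE scaling, other filters, a single fit, a replicate block, no fold limit and each library left out. Leaving out fl/fl tumors 2 and 3, giving mock replicate 1 its own term and treating the identical columns as 2 libraries were chosen after seeing the data. Replicate numbers were not treated as pairs in the main tests. With 2 or 3 pairs per comparison, whether they pair the libraries cannot be settled. Not analyzed here were promoter sequences and proteins. A result of the epidermal gene list is not reported here.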

Additional observations from a re-analysis of the deposited data

How the results depend on the processing

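Counts of members called changed with the alternatives as follows, and so did the share of all genes called, which is given with the comparisons above. The cause was not tested. Between genotypes in tumors the count rose from 0 to 2 with DESeq2 and to 3 with no low-count filter, and ran from 0 to 4 when 1 library was left out. Between treated and mock fl/fl skin, leaving out 1 library gave 0 to 1. Between tumor and mock fl/fl skin it was 1 with DESeq2 (14.3% of all genes), 2 with no low-count filter (7.64%), 2 in a single fit of all libraries (17.6%) and 0 to 3 with 1 library left out. In ΔK14 mice it was 1 with no low-count filter, 1 in the single fit and 0 to 1 with 1 library left out (Jag1 without mock replicate 1, Rbpj without mock replicate 2). Between tumor and treated fl/fl skin it rose from 2 to 4 with no fold limit, fell to 0 without tumors 2 and 3, and ran from 0 to 4 with 1 library left out. It was 0 without treated replicate 1, treated replicate 3, tumor 2 or tumor 3, and 1 without treated replicate 2. In ΔK14 mice it was 2 with no fold limit and 0 to 1 with 1 library left out, since Rbpj had a log2 fold change of 0.92 without tumor replicate 3. The difference between genotypes in the change from treated skin to tumor had 3 members with no low-count filter and 0 to 3 with 1 library left out.

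Of 34 member values that were printed, had an unadjusted p under 0.05 or were called under an alternative, 3 changed sign, and none of the 3 was called with all libraries. Hey1 between genotypes in tumors was -1.19 with all libraries and 0.83 without fl/fl tumors 2 and 3. Jag1 between genotypes in mock skin ran from -0.72 (without ΔK14 replicate 1) to 1.12 with 1 library left out, and Notch1 between tumor and treated ΔK14 skin from -0.069 to 0.36. Of the 65 other member values, 44 changed sign under some alternative and 0 were called under any. A replicate block left the count at 2 between tumor and treated fl/fl skin and changed no other count of members. Among comparisons with 3 pairs, the deviations of same-numbered libraries correlated from -0.546 to 0.391, and in none was every pair over 0.1 or every library most like its own number. With 2 pairs, mock replicate 1 of both genotypes deviated together (0.569 to 0.782 over the pairs). The 2 mock ΔK14 libraries deviate from their mean as mirror images, so these pairs are not independent. Depth limits Hey1 and Hey2 most.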
